A study of Rattus norvegicus with 6 samples.

Results

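Proliferation genes were followed in rat spinal cord during T cell-mediated inflammation with and without neuromyelitis optica antibodies. The set holds 9 genes of the cell division machinery, namely Top2a, Ccna2, Ccnb1, Ccnb2, Cdc20, Plk1, Pcna, Birc5 and Bub1b. They were found by gene name, or else by the gene named in the probe's description, among the 41012 probes of a whole rat genome microarray. This gave 16 probes, which belong to 9 genes of the 36410 targets on the array.

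The 6 groups were Lewis rats, adult by the labels, and each group was measured on 1 array. ENMO rats, the model of experimental neuromyelitis optica, had been given T cells specific for myelin basic protein (MBP) on day 0 and NMO-IgG, human immunoglobulin of a patient with antibodies to the astrocyte water channel aquaporin 4, on day 4. EAEcoI rats got the same T cells with human control IgG in place of NMO-IgG, and EAEcoP rats got the T cells with PBS. The rats called NMO-IgG only and control IgG only got the respective antibody and no T cells. The healthy control was left untreated, so that it lacks the PBS injection of EAEcoP. Treated rats were killed 24 hours after the antibody or PBS, on day 5. RNA came from formaldehyde-fixed, paraffin-embedded sections over the whole length of the cord, was pooled from 5 rats a group (3 in the healthy control) and was amplified. All T cell effects therefore come from transferred, already activated T cells, and all antibody effects from human IgG in a rat.

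Dividing cells express these genes in waves. Replication factors such as Pcna rise in S phase, and the mitotic genes peak in G2 and M phase, when cyclin B drives entry into mitosis and Cdc20 later triggers the destruction of cyclin B. In the adult spinal cord most neurons do not divide, and dividing cells are mainly glial precursors, with reactive microglia and infiltrating lymphocytes added in inflammation. In bulk RNA, fewer dividing cells and less RNA per dividing cell cannot be told apart.

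What the array sees of these genes are stretches of 60 bases. The probes shown here are those on which the results for DNA topoisomerase, the B-type cyclins, Cdc20 and the more 5′ Plk1 probe rest. Positions are those in the files, which do not name the rat genome build. The Top2a probe A_43_P12148 was placed at chr10:87773477-87773659, that of Ccnb1 (A_44_P534089) at chr2:31574809-31575048 and that of Cdc20 (A_42_P794130) at chr5:138913267-138914237. These 3 intervals, all on the minus strand, are longer than the probe, with 183, 240 and 971 bases, so the probes were listed across intron-sized gaps. The Ccnb2 probe (A_44_P461544) was placed at chr8:74896165-74896224 on the minus strand and the Plk1 probe A_44_P463309 at chr1:181012298-181012357 on the plus strand, without a gap.
Top2a: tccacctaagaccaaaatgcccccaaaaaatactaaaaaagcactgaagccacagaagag
Ccnb1: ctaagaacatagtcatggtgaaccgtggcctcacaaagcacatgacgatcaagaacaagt
Ccnb2: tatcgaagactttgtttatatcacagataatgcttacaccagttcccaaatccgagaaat
Cdc20: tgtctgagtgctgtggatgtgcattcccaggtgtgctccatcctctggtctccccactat
Plk1: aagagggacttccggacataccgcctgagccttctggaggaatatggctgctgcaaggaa

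Most of these genes were at or near the detection limit. Values are normalized signal intensities (NSI), the scanner's background-corrected signal after quantile normalization, on a linear scale. NSI can be compared between arrays for 1 probe and not between probes. Where values are listed, those with T cells come in the order ENMO, EAEcoI and EAEcoP, and those without in the order NMO-IgG only, control IgG, healthy. By the scanner's flag for a signal well above background, 4 of the 16 probes passed on all 6 arrays, 4 on some and 8 on none, against 28.4% of all probes on all 6 and 33.0% on none. By gene, 7 of 9 passed on at least 1 array, here called measured, 2 on none and 3 (Top2a, Cdc20 and Plk1) on every array. Among all targets the shares were 68.5%, 31.5% and 30.4%.

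The number of genes above background differed between arrays. It was 7 on EAEcoI, 5 on EAEcoP, 4 on each of the 3 arrays without T cells and 3 on ENMO. The share of all spots above background was 54.1% on EAEcoI, 60.2% on EAEcoP, 44.5% on ENMO and 35.4% to 41.7% where no T cells were given. The part of this array-wide difference in the count of detected genes was not tested.

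Pcna, the sliding clamp that holds DNA polymerase on the template, was not well above background on any array with either of its 2 probes. The signals ran from 2.17 to 6.25 for A_44_P242756 and from 2.13 to 5.77 for A_44_P995132. Ccna2, the cyclin of S phase and G2, was likewise below the limit on all arrays, with 1.77 to 3.19 for A_43_P15962 and 3.44 to 5.64 for A_44_P527480. For these genes the arrays give no level to compare. The lowest signals above background on an array were between 5.59 on EAEcoP and 11.9 on NMO-IgG only.

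Top2a, the topoisomerase that untangles replicated chromosomes, was measured on all arrays with A_43_P12148. Its NSI was 56.8, 84.1 and 26.2 with T cells and 44.6, 63.8 and 45.7 without. The highest array (EAEcoI) and the lowest (EAEcoP) were both from rats with T cells, and the groups overlapped. A second Top2a probe, A_44_P531770, stayed below the limit everywhere, with signals of 3.18 to 7.73.

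Of the cyclins that drive mitotic entry together with Cdk1, Ccnb1 was above background on EAEcoP (NSI 15.1) and EAEcoI (11.3) and on no other array. Its signals there were 8.24 in control IgG only, 7.37 in ENMO, 5.59 in healthy control and 4.78 in NMO-IgG only. Thus the EAE arrays were the highest, but ENMO lay below control IgG only. The other Ccnb1 probe, A_44_P325479, was below the limit on all arrays (1.93 to 4.45).

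Ccnb2 had a different order. It was above background on NMO-IgG only (60.7) and EAEcoI (29.7), with signals below the limit of 22.0 in healthy control, 20.6 in ENMO, 5.74 in control IgG only and 4.15 in EAEcoP. Its highest array had no T cells and its lowest had them. Against the lowest signal above background on EAEcoP, its highest array was at least 10.9-fold higher. Folds given as at least are approximate limits, since some spots above the lowest passing signal of an array still failed the flag. The paired cyclins thus did not share an array on which they were highest.

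Plk1, the kinase that acts at centrosomes, spindle and midbody, had 2 probes above background on all arrays, and they gave different orders. With A_44_P463313 the NSI was 105, 235 and 66.5 with T cells and 108, 119 and 111 without. With A_44_P463309 it was 45.2, 45.5 and 64.0 with T cells and 32.5, 55.8 and 30.0 without. EAEcoP was thus the lowest array by the first probe and the highest by the second. EAEcoI exceeded EAEcoP 3.54-fold by the first and was 1.40-fold lower by the second. The first probe is the brighter and stands for the gene in the tests.

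Cdc20, the activator of the anaphase-promoting complex that sends cyclin B to the proteasome and is also known from non-dividing neurons, gave 4527, 2293 and 3178 with T cells and 5353, 1521 and 3484 without. The arrays with NMO-IgG were the highest, those with control IgG the lowest, and those without antibody lay between, on both T-cell backgrounds.

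Bub1b, the checkpoint kinase that restrains Cdc20 until chromosomes are attached, passed the limit on EAEcoI only, with A_44_P311771 (13.8). The other signals of that probe were below the limit and ran from 6.08 in EAEcoP to 19.2 in healthy control. The flag compares each spot with the background of its array, which is why a spot of 19.2 can fall short where one of 13.8 does not. Its probes A_43_P10723 (4.00 to 20.7) and A_44_P503490 (2.37 to 7.64) were above background on no array.

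Birc5, or survivin, a part of the chromosomal passenger complex and an inhibitor of apoptosis, was above background in EAEcoI (61.6), control IgG only (34.7), EAEcoP (33.8) and healthy control (30.1). It was below the limit in ENMO (19.0) and NMO-IgG only (7.28). The arrays it missed were those of the rats given NMO-IgG. The files give no position for its probe, A_44_P237153.

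**Figure D1:**
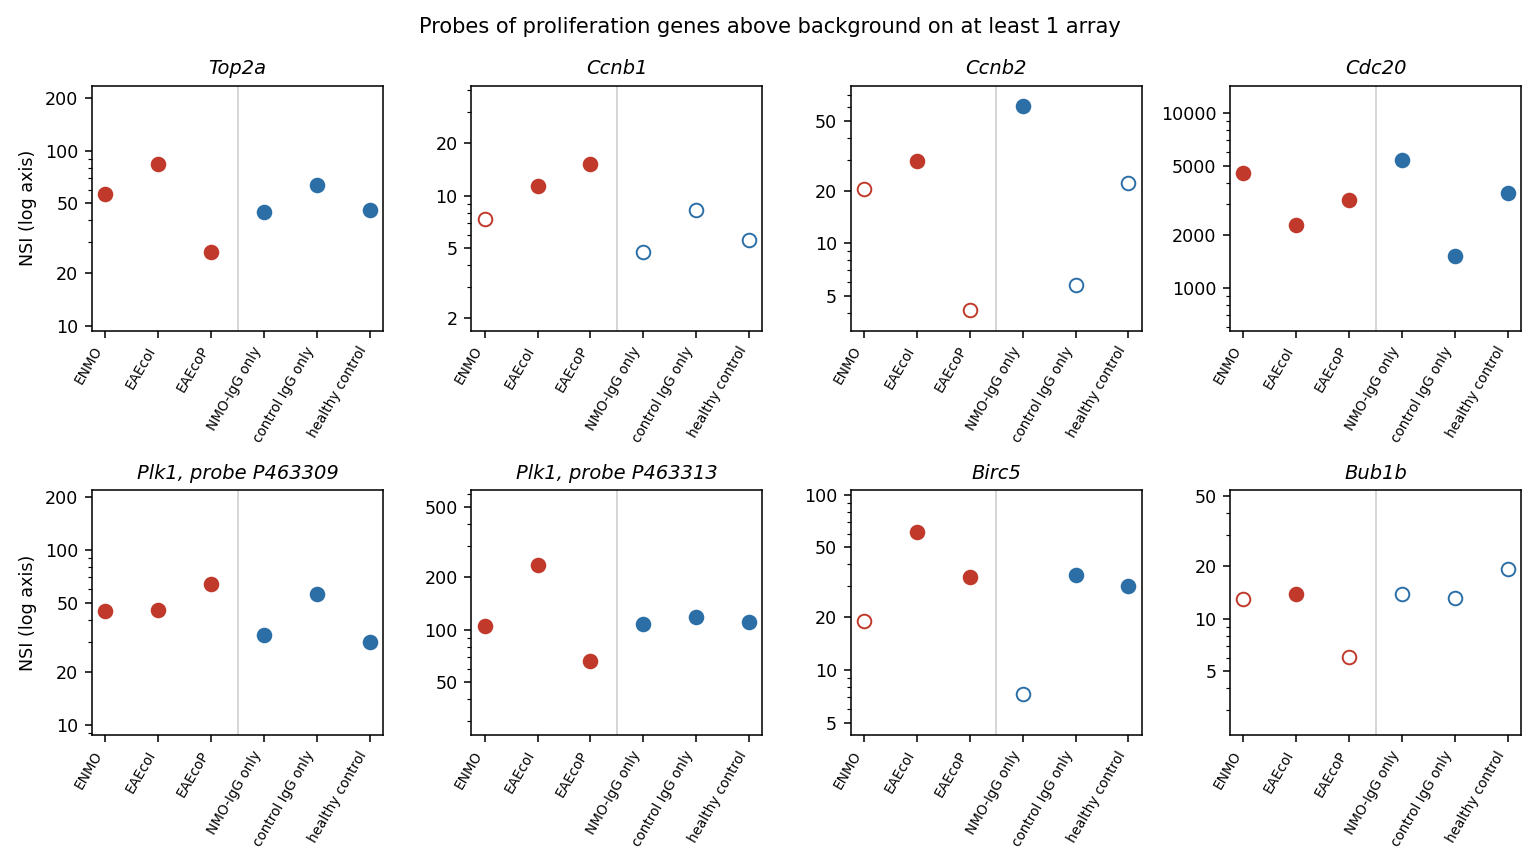
NSI (log axis, scaled for each panel) of the 8 probes above background on at least 1 array, by group. Red marks arrays with T cells and blue those without, 1 array a group; filled points were well above background and open points were not. No panel separates red from blue, and in Birc5 the open points are the NMO-IgG arrays.

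The main question for these genes was whether the inflamed cord, with T cells, had more of them than the cord without. None of the 7 measured genes had all 3 arrays with T cells above or all below the 3 without, nor had the 2 genes below background. Of all measured targets 10.9% had all arrays with T cells higher and 7.08% all lower. With so few genes the count of 0 is given as a description. The genes differed among themselves: the difference of mean log2 NSI, with minus without T cells, was positive in 4 of the 7 measured genes, where 48.8% of all targets were positive, and negative in 3. Its median was 0.07, beside -0.02 over all targets. Without the ENMO array, or without control IgG only, Ccnb1 was higher on all remaining arrays with T cells. In the deposited values, not normalized between arrays and with a median shift of 0.69 over all targets, Ccnb1 and Plk1 were. The share of all targets with that pattern is not given for these settings.

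By gene the differences were small against their intervals. Top2a differed by -0.02 (95% interval -1.32 to 1.28), Cdc20 by 0.07 (-1.30 to 1.45) and Plk1 by 0.07 (-1.25 to 1.38), with 3 arrays against 3. Differences within these intervals could not be detected with 6 arrays. Birc5 differed by 0.79 (-0.85 to 2.44), which was 0.08 without the NMO-IgG only array and -0.0015 with the normexp background correction, and Ccnb2 by -0.53 (-2.71 to 1.64). For Ccnb1 the difference of signals was 0.84 (-0.36 to 2.03) and for Bub1b -0.57 (-1.79 to 0.66), but neither was above background without T cells, and against the detection limit no fold is left to give.

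The test was limma over 24938 targets, and 0 of the 7 genes passed an adjusted p of 0.05, as did 0% of all targets. At an unadjusted p under 0.05 it was also 0 of 7, against 11.3% of all targets, and the lowest limma p among them was 0.149, for Ccnb1. An exact permutation test of 3 arrays against 3 cannot go below a two-sided p of 0.10. The 3 arrays of a side differ in antibody, so that the p-values measure the spread between these pools and not between rats.

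The differences with minus without T cells were also taken within each array slide. Slide 1 held ENMO, EAEcoP and control IgG only, and slide 2 held EAEcoI, NMO-IgG only and healthy control. Within each slide the arrays with T cells had other antibodies than those without. Slide and antibody therefore cannot be told apart in these differences. Within slide 1 the difference was -0.72 for Top2a, -0.51 for Plk1, -0.45 for Birc5 and 1.32 for Cdc20, and within slide 2 it was 0.90, 1.1, 2.06 and -0.91. These 4 genes thus changed sign between slides, as did Ccnb2 (0.68 and -0.30). Ccnb1 was higher with T cells on both (0.36 and 1.13) and Bub1b lower on both (-0.58 and -0.24). With slide as a block, limma gave values from -0.41 (Bub1b) to 0.80 (Birc5), and the lowest adjusted p was 0.696, for Ccnb1.

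**Figure D2:**
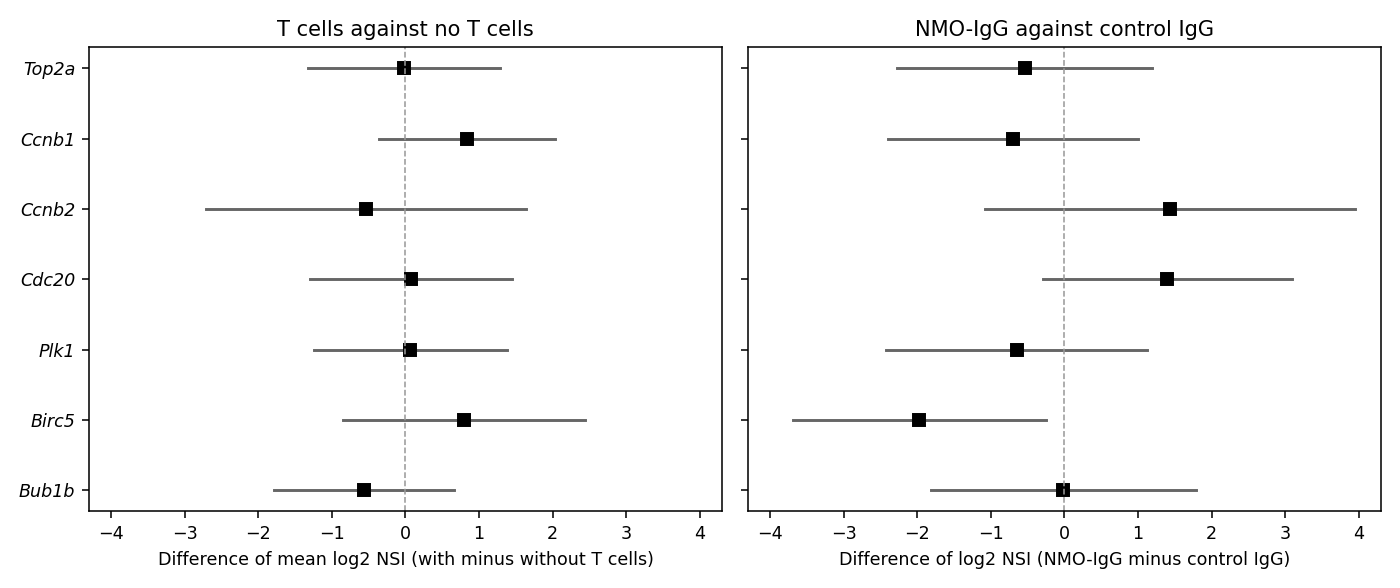
Differences of log2 NSI for the 7 measured genes, left between 3 arrays with and 3 without T cells, right between NMO-IgG and control IgG in a fit of all 6 arrays by T cells plus antibody. Squares are estimates and lines their 95% intervals from limma. Left, all lines cross 0. Right, that of Birc5 alone does not, and its signals on the NMO-IgG arrays were not well above background.

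The arrays were next compared by antibody, NMO-IgG against control IgG, with the T cells held the same. Birc5 was lower with NMO-IgG than with control IgG on both backgrounds, by 1.69 on the log2 scale with T cells and by 2.25 without. Birc5 was not above background on either NMO-IgG array, so these are stated as approximate limits. It was at least 3.23-fold higher in EAEcoI than in ENMO, against its own signal in ENMO. It was at least 2.91-fold higher in control IgG only than in NMO-IgG only, against the lowest signal above background there. Replicate spots of the same probe within an array, before normalization, implied an SD for a difference between arrays. It was 0.52 (log2) for spots above background and 0.77 for all spots, and covers the spots and not the spread between pools. The latter was not measured for these pairs. In the additive fit the difference of signals was -1.97 (SE 0.76), with a limma p of 0.0286 before and 1.0 after adjustment over all targets. The NMO-IgG signals in this fit were below the limit, so its difference and p are not exact. With the normexp background correction, the SD of Birc5 between arrays of the same T cell status was 0.20, against 1.06 in the main setting. Its differences between the antibodies were therefore smaller there.

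Birc5 was the 1 gene of 7 with an unadjusted limma p under 0.05 in this comparison, against 1.34% of all targets, and 0 of 7 and 0% of all targets passed after adjustment. Each pair of arrays compared here lay on different slides, in opposite order on the 2 backgrounds, so that a slide effect common to both cancels in the fitted value. Birc5 was also at least 1.77-fold higher in EAEcoP than in ENMO and at least 2.53-fold higher in healthy control than in NMO-IgG only.

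Cdc20 went the other way. It was higher with NMO-IgG than with control IgG by 0.98 (1.97-fold) with T cells and by 1.82 (3.52-fold) without, and was measured on all 4 arrays. The fit gave 1.40 (SE 0.75, limma adjusted p = 1.0). Against the arrays without antibody, ENMO exceeded EAEcoP 1.42-fold and NMO-IgG only exceeded healthy control 1.54-fold. Control IgG only was 2.29-fold lower than healthy control, so part of the distance between the antibodies lay on the control IgG side.

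Top2a and Plk1 were lower with NMO-IgG on both backgrounds as well. The log2 differences were -0.57 with and -0.52 without T cells for Top2a. For Plk1 they were -1.17 and -0.13 by the brighter probe and -0.01 and -0.78 by the other, so that the probes placed the larger difference on opposite backgrounds. Ccnb1 was at least 1.38-fold higher in EAEcoI than in ENMO, and without T cells neither array was above background. Ccnb2 was split: its signal was lower in ENMO than in EAEcoI by 0.53, but NMO-IgG only was at least 5.26-fold higher than control IgG only. Bub1b was above background on 1 of these 4 arrays, so no comparison without T cells could be made.

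In all, 4 of the 7 measured genes (Top2a, Plk1, Birc5 and Ccnb1) had lower signals with NMO-IgG on both backgrounds and 1 higher (Cdc20), counting signals below the limit as they are. Among all targets 22.3% were lower on both and 22.4% higher on both. With so few genes this count is given as a description.

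**Figure D3:**
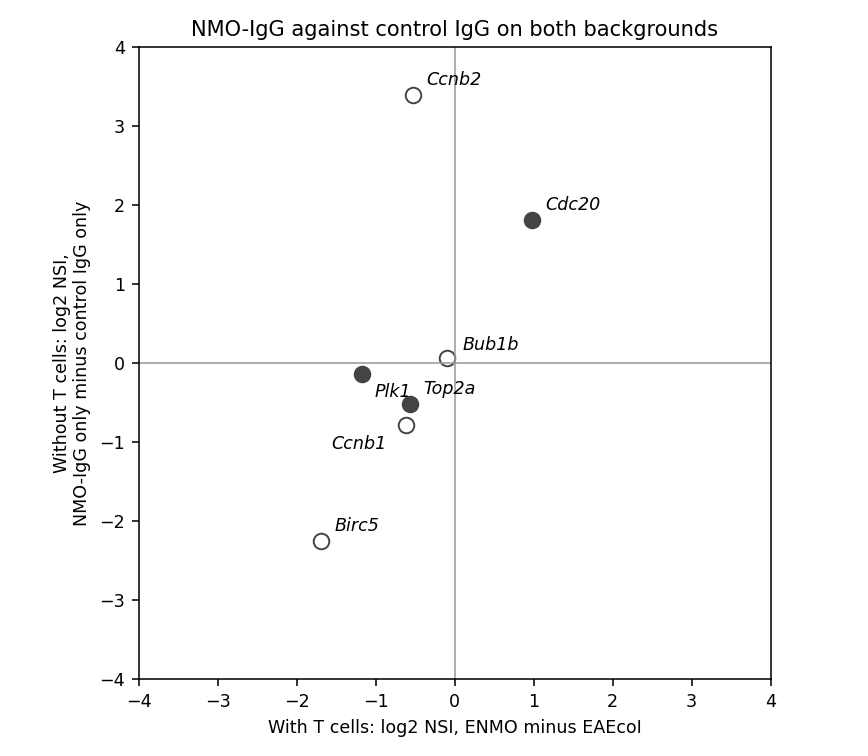
Log2 difference between NMO-IgG and control IgG with T cells (horizontal) and without (vertical), 1 pair of arrays each, for the 7 measured genes. Filled points were above background on all 4 arrays and open points were not on at least 1, so that their positions are not exact; without T cells, Ccnb1 and Bub1b were below background on both arrays. Cdc20 lies high on both axes, Birc5 low on both, and Ccnb2 apart at -0.53 and 3.40.

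Control IgG against no antibody shares the control IgG arrays with the comparison above, so the values are set side by side and not taken as a second result. Top2a was 3.20-fold higher in EAEcoI than in EAEcoP and 1.40-fold higher in control IgG only than in healthy control. Birc5 was 1.82-fold and 1.15-fold higher. Plk1 was 3.54-fold and 1.07-fold higher by the brighter probe, but 1.40-fold lower and 1.86-fold higher by the other. Ccnb2 was at least 5.31-fold and Bub1b at least 2.28-fold higher in EAEcoI than in EAEcoP. By the brightest probe, Top2a, Plk1 and Birc5 were the 3 of 7 measured genes higher with control IgG on both backgrounds, against 24.4% of all targets, and 1 (Cdc20) was lower, against 18.4%. With the probes of a gene averaged, Birc5 and Plk1 were higher on both and Top2a was not. By limma, 0 of 7 had an unadjusted p under 0.05, against 2.49% of all targets, and 0% of targets passed after adjustment.

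Set against both EAE arrays, no proliferation gene was more than 2-fold higher in ENMO where 6.83% of all targets were, and none was more than 2-fold lower than both, where 8.86% were. Cdc20 came closest (1.97-fold over EAEcoI and 1.42-fold over EAEcoP) and passed 2-fold over both when arrays were scaled to their 75th percentile. EAEcoI was the array with the highest value for 3 of the 7 measured genes (Top2a, Plk1 and Birc5). EAEcoP had the lowest value of Top2a and of the brighter Plk1 probe, and the highest of the other Plk1 probe. Both had received T cells, and they differed in the human IgG and in the slide, which cannot be told apart here.

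Genes that work with these 9 were taken from lists of general knowledge, each gene by its brightest probe. Of 37 mitosis genes with a probe, 19 were measured and 18 were not above background anywhere. Among the 18 were Mki67, the usual marker of cycling cells, the kinases Aurka, Aurkb, Bub1 and Ttk, the kinesin Kif11 and the spindle factor Tpx2. Of the partners of Bub1b in the spindle checkpoint, Bub1, Bub3 and Ttk were thus not measured, while Mad2l1 was on all arrays. Of the chromosomal passenger complex, in which Birc5 acts with Incenp, Aurkb and Cdca8, only Incenp was measured besides Birc5.

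For the 19 mitosis genes the median difference with minus without T cells was -0.13, beside -0.02 for all targets, with 9 means higher and 10 lower. At an unadjusted limma p under 0.05 there were 2 higher and 2 lower, against 8.20% and 3.13% of all targets, and 0 passed after adjustment. Higher was Kif20a, a kinesin of cytokinesis, at 226, 165 and 950 with T cells against 107, 160 and 66.2 without. Its log2 difference was 1.66 (limma adjusted p = 0.437).

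Hmmr, a hyaluronan receptor that also binds the spindle, had the largest difference in the lists, 3.83 (limma adjusted p = 0.248). It read 4013 in EAEcoI and 14050 in EAEcoP, and 269, 2060 and 269 without T cells. Its spot on the ENMO array carried the outlier mark and was dropped, so that the test had 2 arrays against 3. The array of control IgG only stood apart from the other arrays without T cells.

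Incenp was lower with T cells, at 24.8, 13.2 and 16.4 against 36.8, 45.2 and 58.0 (log2 difference -1.39, limma adjusted p = 0.368). Mybl2, a transcription factor of S phase and mitotic genes that was named after its value was seen, read 59.8, 85.3 and 43.4 with T cells and 177, 154 and 107 without (log2 difference -1.24, limma adjusted p = 0.426). Kif23, the kinesin of the central spindle, differed by -1.31 but ranged from 7.89 in ENMO to 370 in EAEcoP.

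DNA replication genes were more often measured, 23 of 29 with a probe, 11 of them on all arrays. Their median difference was -0.15, with 11 means higher and 12 lower, and 0 had an unadjusted limma p under 0.05. The widest were Mcm3, a subunit of the replicative helicase (1.38), and Tk1, the thymidine kinase of S phase (1.36), and on the other side Pole, the leading strand polymerase (-1.27), and Lig1, the ligase that joins Okazaki fragments (-1.25). Lig1 was bright, with 2619, 2026 and 642 on the arrays with T cells and 6293, 2055 and 3518 on those without, and EAEcoP was its lowest array.

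Of the genes of G1 and S entry, 9 of 14 with a probe were measured, with a median of -0.06 and 0 genes past an unadjusted p of 0.05. Cdk4 (0.09) and Ccnd2 (0.01), a kinase and a cyclin of G1, were nearly level. Ccnd1 differed by -1.49, and Cdk2 by -2.26, where a value of 885 in healthy control stood against 13.0 to 39.1 on the other 5 arrays. Of the cell cycle inhibitors, 12 of 14 were measured, with a median of 0.08 and 0 genes past that p. Cdkn2d differed by 1.37 and Cdkn1a, or p21, by 0.89, with all T cell arrays of Cdkn1a (19.1 to 37.3) above the others (9.76 to 16.1), while Cdkn2c (-0.89) and Rbl2 (-0.92) lay lower.

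The anaphase-promoting complex, which Cdc20 activates, had 6 measured genes of 11 and a median of -0.41. An unadjusted limma p under 0.05 was reached by 1 gene, against 11.3% of all targets. That gene, the subunit Cdc23, read 24.6, 67.0 and 54.1 with T cells and 5.93, 23.9 and 3.82 without (log2 difference 2.45, limma adjusted p = 0.281). Anapc1 differed by 0.99 with all T cell arrays higher (limma adjusted p = 0.492), as in Cdc23 and in 10.9% of all targets. Anapc2 differed by -0.53, and Fzr1, the alternative activator, by -0.88 with 659 in healthy control against 20.9 to 90.7 elsewhere. Of the paralogues of the 9 genes, 1 of 8 was measured, Plk3, with 18.8 to 29.1 on the 6 arrays and a difference of -0.06. In each of the 6 lists 0 genes passed after adjustment, in this comparison and in that of NMO-IgG with control IgG.

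**Figure D4:**
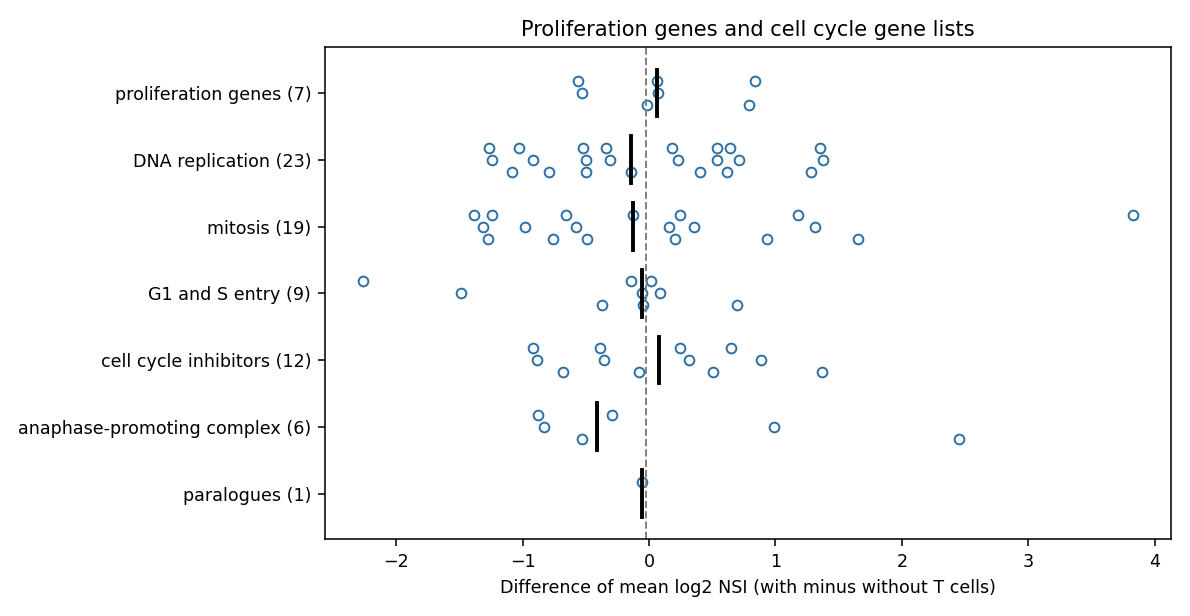
Difference of mean log2 NSI, with minus without T cells, for each measured gene (circles) of the 9 proliferation genes and of 6 gene lists, with the number measured in brackets. Black bars are medians, from -0.41 to 0.08, and the dashed line is the median of all targets, -0.02. The point at 3.83 is Hmmr.

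Markers of infiltrating and resident cells were read on the same arrays. Of the T cell markers with a probe, 10 of 14 were measured, with a median difference of 0.56. Their means were higher with T cells in 6 and lower in 4 (Cd3g, Cd4, Cd5 and Cd8b). Summed NSI of these markers was 1573 to 3518 with T cells against 1283 to 1304 without, the largest part from Cd3d. Cd3d, of the T cell receptor complex, gave 2348, 924 and 872 against 918, 628 and 594, and Cd3e and Cd2 were below background on all arrays. Of myeloid and microglial markers 14 of 15 were measured, 5 of them with all T cell arrays higher and 0 with all lower, beside 10.9% and 7.08% of all targets, but the median difference was -0.01, with 7 means higher and 7 lower. Summed NSI was 7982 to 15690 against 5414 to 7572, of which Tyrobp gave 14040 on the ENMO array. Lyz2, the macrophage lysozyme, gave 126, 93.6 and 658 against 4.84, 4.98 and 9.74. The part of such cells in the values of the proliferation genes was not tested.

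Resident cells were also seen. All 10 oligodendrocyte markers were above background on at least 1 array and 8 of 9 neuronal markers with a probe were. Of the 9 astrocyte markers 7 were measured, with a median difference of -0.22, 1 mean higher and 6 lower. All T cell arrays were lower for 2 of them. Among all targets 48.8% had a higher mean with T cells and 7.08% had all T cell arrays lower. Aldoc and Gjb6 were above background on all arrays, Gfap on 4 and Aqp4 on 1. Gjb6, a connexin of astrocytes, gave 29.9 to 128 with T cells against 1410 to 2362 without. Of the 6 markers listed for precursors of oligodendrocytes, a dividing cell of the adult cord, 5 were above background on all arrays. Pdgfra was on none, and the part of precursors in the signals of the other markers was not tested. The median difference of these 5 markers was 0.08, with 3 means higher and 2 lower. Their summed NSI was 1783 to 5366 with and 4802 to 6141 without T cells, most of it from Sox10 and Cspg4.

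Patterns over the arrays were compared for the genes above background on at least 3 arrays, Top2a, Cdc20, Plk1 and Birc5. Over the 6 arrays, log2 NSI of Top2a had a Pearson correlation of 0.91 with the brighter Plk1 probe and of -0.16 with the other, while that of Cdc20 with Birc5 was -0.75, with Top2a -0.41 and with the brighter Plk1 probe -0.35. The arrays are the same pools in each case and share their slide and normalization, so these are descriptions. The mean of the 4 centred profiles was 0.64 in EAEcoI and lay between -0.33 and 0.05 on the others. The targets most like this profile, of 9249 with a symbol, were Il9 (r = 0.997), Emc10 (0.990), Ankrd52 (0.968), Irak2 (0.967) and Clstn2 (0.966), again over 6 arrays. Emc10, for example, read 1578 in EAEcoI and 297 to 493 elsewhere.

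Promoters of mitotic genes are known for CCAAT boxes, bound by NF-Y, and for the cell cycle homology region TTTGAA. RefSeq promoters of the assembly GRCr8, from 250 bases before to 50 after the start, were matched for 8 of the 9 genes; Ccna2 was not matched. The letters CCAAT, on either strand, were in 7 of the 8 (all but Bub1b), against 37.5% of 33469 promoters, and TTTGAA, on either strand, in 6 of the 8 (all but Ccnb1 and Pcna), against 18.3%. The 2 motifs share no bases in the stretches shown. These are the 250 bases before the start of Top2a (chr10:84473094-84473343, minus strand) and Plk1 (chr1:186147408-186147657, plus strand), 2 of the genes measured on all arrays, and of Cdc20 (chr5:137255800-137256049, minus strand), the third. Capitals mark CCAAT or its complement ATTGG, and TTTGAA or TTCAAA, while TTTAAA is not marked.
Top2a: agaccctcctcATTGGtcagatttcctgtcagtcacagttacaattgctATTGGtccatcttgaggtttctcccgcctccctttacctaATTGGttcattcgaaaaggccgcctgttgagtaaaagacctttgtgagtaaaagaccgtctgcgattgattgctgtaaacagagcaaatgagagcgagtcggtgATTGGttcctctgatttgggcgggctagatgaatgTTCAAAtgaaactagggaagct
Plk1: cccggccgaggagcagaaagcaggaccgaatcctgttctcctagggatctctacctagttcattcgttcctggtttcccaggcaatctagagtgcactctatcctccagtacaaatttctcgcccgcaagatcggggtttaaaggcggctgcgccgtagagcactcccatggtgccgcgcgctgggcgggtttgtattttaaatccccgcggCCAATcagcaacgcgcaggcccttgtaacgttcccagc
Cdc20: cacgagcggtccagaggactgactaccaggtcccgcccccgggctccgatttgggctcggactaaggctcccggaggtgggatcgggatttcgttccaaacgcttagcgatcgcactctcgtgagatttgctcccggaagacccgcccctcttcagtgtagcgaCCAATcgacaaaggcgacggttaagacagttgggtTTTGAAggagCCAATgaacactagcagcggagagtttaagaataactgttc
Within these stretches Top2a held 4 CCAAT and 1 TTTGAA, Plk1 held 1 and 0, and Cdc20 held 2 and 1. Cdc20 thus carries both CCAAT and TTTGAA in front of its start, like Top2a. The correlation of their signals over the arrays was -0.41, and a link between motifs and signals was not tested.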

How the data were processed

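RNA of 6 pools was hybridised in 1 colour to Agilent 4x44K rat arrays, 1 array a group. The authors deposited the scanner's spot tables, with processed signal intensity already corrected for background and spatial trend, and 1 intensity per target. Outlier-marked spots were removed, the others averaged by probe on the log2 scale, and arrays were quantile-normalized. A target was its brightest probe, kept if well above background on at least 1 array. limma (3.58.1, R 4.3.3) was fitted over all targets, with T cells alone or with T cells and antibody, and p was adjusted by Benjamini-Hochberg. Of the targets 12251 were matched to a RefSeq symbol. "At least" folds are against the higher of the dim probe's own signal and the lowest signal above background on that array. They are approximate, since the flag is set for each spot and some spots above that lowest signal failed it. The fits were tested on simulated data. The 9 genes and all lists were chosen with earlier results of these data known. Named beside the 9 genes were, per list, the 2 largest differences each way among genes above background on 3 or more arrays, and the 5 most similar targets. Groups have 1 array, so the number of arrays limits the precision. Alternatives were scaling to the 75th percentile, normexp (offset 50), the deposited intensities per target, outlier spots kept, means over probes, other filters, blocks, and leaving out each array; quantile-normalized deposited values and single probes were added after seeing the data.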

Additional observations from a re-analysis of the deposited data

How the results depend on the processing

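No paired analysis was possible because replicate numbers pair nothing with 1 array a group. Matched by antibody as a block instead, limma called 0 targets (Ccnb1 0.84, adjusted p = 0.667), as it did with slide as a block. Depth of signal is a limit, since 2 of the 9 genes were below background throughout and the others were measured on 1 to 6 arrays. Over the 12 alternatives other than filters, which leave single genes as they are, the difference with T cells was 0.19 to 1.68 for Ccnb1, -0.0015 (normexp) to 1.64 for Birc5 and -0.65 to 0.45 for Top2a. No proliferation gene passed an adjusted p in any alternative.

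Leaving out 1 array, targets called for T cells were 0 to 179 (179 without ENMO, 3 without EAEcoI), for NMO-IgG 0 to 255 (255 without control IgG only, 5 without EAEcoI) and for control IgG 0 to 282 (282 without control IgG only, 56 without EAEcoI). Genes with all T cell arrays higher were then 0 to 1, Ccnb1 without ENMO or without control IgG only and Ccna2, below background, without healthy control. The list medians ranged from -0.335 to 0.00129 for DNA replication, -0.33 to 0.19 for mitosis and -0.50 to 0.20 for the anaphase-promoting complex.

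With the deposited values, where the median of all targets shifts by 0.69, 2 genes (Ccnb1 and Plk1) were higher on all T cell arrays and 0 higher with control IgG on both backgrounds. The medians were then 0.81 for DNA replication, 0.57 for mitosis, 0.50 for G1 and S entry, 0.84 for the inhibitors, 0.43 for the anaphase-promoting complex and 1.03 for the paralogues. Quantile-normalized, these values gave 0.12 for DNA replication. Scaling to the 75th percentile left 1 gene (Cdc20) higher with NMO-IgG on both backgrounds and made the same 1 over 2-fold higher in ENMO than in both EAE arrays. With normexp 1 gene was higher with NMO-IgG and 5 with control IgG, and DNA replication was 0.0351. Averaging probes gave 0.12 for DNA replication and 0.28 for the paralogues. Among genes above background on all 6 arrays the medians were -0.34 for DNA replication, -0.71 for mitosis and -0.39 for the inhibitors, and -0.14 for the inhibitors with no filter. Shares of all targets with such patterns are not given for the alternatives, so the gene counts under them are descriptions. The causes were not tested.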
